A study of Homo sapiens with 12 samples.

Results

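The genes described here are 10 components and outputs of the circadian clock, chosen by name: CLOCK, NPAS2, PER1, PER2, PER3, CRY1, CRY2, BHLHE40, DBP and TEF. All 10 were found among the 62702 genes with values, and all 10 were among the 17677 genes that passed the filter on low counts. The clock of mammalian cells is a feedback loop of transcription. CLOCK, or its relative NPAS2, pairs with BMAL1 and binds E-box sequences in the genes of PER and CRY proteins, which return to the nucleus and repress the pair, while BHLHE40 competes for the same E-boxes. DBP and TEF are PAR bZIP transcription factors that carry the rhythm to further genes through D-box sequences, and mammary epithelium is among the tissues with a clock.

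RNA was measured in MCF10AT cells, which were made from the MCF10A line of human mammary epithelium by transformation with Ras and which expressed the long human prolactin receptor together with the intermediate one (hPRLrL/hPRLrI). The comparison of cells without and with the I-tail asks what this tail of the intermediate receptor contributes. The 4 groups of 3 libraries were deleted PRL (hPRLrL with a hPRLrI that lacks the I-tail, given prolactin at 250 ng/ml for 2 h), deleted untreated (the same receptors, no prolactin), intact PRL (hPRLrL with the unaltered hPRLrI, the same prolactin dose and time) and intact untreated. All cells had been without serum for 24 h, in medium with albumin, and the labels call the libraries biological replicates. The labels used here do not give how the receptors were introduced or whether each line is 1 clone.

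Libraries held 36120808 to 57324865 counts. Values are CPM, the counts of a gene scaled to a common library size with TMM factors, and a gene is called where the edgeR quasi-likelihood test, adjusted over all 17677 genes by Benjamini-Hochberg, gives a value under 0.05. All 8 epithelial markers were detected in all 12 libraries, and all 5 leukocyte markers stayed under 1 CPM. Of the 5 fibroblast markers, COL1A1 was at 97.1 to 238 CPM, DCN at 212 to 472 CPM and PDGFRB at 11.3 to 27.4 CPM, while COL3A1 was at 0.0897 to 2.63 CPM and COL1A2 at 0.0445 to 0.676 CPM. The title numbers fall into 3 runs of 4 (1 to 4, 5 to 8 and 9 to 12), each with 1 library of every group. The labels do not say what a run stands for, and the libraries of run 1 stood apart in 26.4% of all genes, whose levels there did not overlap those of the other 8 libraries. Results are therefore given without a term for the runs and, for some genes and comparisons where this is stated, also with it.

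None of the 10 clock genes passed the test in any of the 5 comparisons. DBP came closest. Its mean with PRL lay below the untreated mean in both receptor pairs, with an averaged log2 fold change of -0.74 ± 0.22 (SE), but its adjusted p was 0.637 and 0.0504 with a term for the runs. TEF, its close relative, had an averaged log2 fold change of -0.31 ± 0.16 and varied across the 12 libraries together with DBP. In the first run of title numbers PER3 and CLOCK lay above all 8 other libraries. These were 2 of 10 members apart in that run, against 26.4% of all genes, a share near that of genes in general. In bulk RNA, a lower level through fewer cells of a type and through less RNA per cell cannot be told apart.

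The promoters of the genes these values turn on are shown first, since E-boxes and D-boxes are the sequences through which the loop acts. They are RefSeq sequences of build GRCh38.p14, from 250 bases before to 50 bases after the gene start, read 5′ to 3′ on the strand of the gene. Capitals mark the motifs searched on both strands: E-box CACGTG, E′-box CACGTT, D-box TTATGTAA and its variant TTACGTAA, cAMP response element TGACGTCA and STAT site TTCNNNGAA. DBP and TEF are shown because their levels varied together and lay below the untreated ones in most PRL libraries, with both annotated starts of TEF, and PER1 and PER3 because their levels ran in opposite directions across libraries.
DBP chr19:48637330-48637629 (-): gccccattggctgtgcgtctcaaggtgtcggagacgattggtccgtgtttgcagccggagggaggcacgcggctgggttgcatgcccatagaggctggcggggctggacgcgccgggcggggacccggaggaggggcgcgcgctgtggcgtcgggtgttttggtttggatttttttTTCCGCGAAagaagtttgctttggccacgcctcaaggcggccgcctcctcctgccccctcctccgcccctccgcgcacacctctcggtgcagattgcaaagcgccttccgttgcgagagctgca
TEF chr22:41367205-41367504 (+): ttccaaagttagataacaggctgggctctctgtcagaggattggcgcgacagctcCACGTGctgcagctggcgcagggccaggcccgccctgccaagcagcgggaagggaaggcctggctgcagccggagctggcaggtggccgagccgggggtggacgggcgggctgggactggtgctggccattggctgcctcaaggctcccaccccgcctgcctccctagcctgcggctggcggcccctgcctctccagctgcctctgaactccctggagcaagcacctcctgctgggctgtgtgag
TEF chr22:41381692-41381991 (+): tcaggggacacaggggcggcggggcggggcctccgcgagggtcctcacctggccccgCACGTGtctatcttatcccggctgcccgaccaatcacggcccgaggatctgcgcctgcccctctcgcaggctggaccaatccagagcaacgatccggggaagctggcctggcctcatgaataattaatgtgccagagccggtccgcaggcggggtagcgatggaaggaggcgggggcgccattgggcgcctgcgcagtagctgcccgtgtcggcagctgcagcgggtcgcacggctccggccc
PER1 chr17:8152355-8152654 (-): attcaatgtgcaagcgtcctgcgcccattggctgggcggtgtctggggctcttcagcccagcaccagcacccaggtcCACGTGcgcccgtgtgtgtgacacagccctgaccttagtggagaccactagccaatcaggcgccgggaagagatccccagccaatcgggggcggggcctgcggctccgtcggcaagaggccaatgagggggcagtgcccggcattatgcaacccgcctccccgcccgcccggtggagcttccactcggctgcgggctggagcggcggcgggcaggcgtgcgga
PER3 chr1:7784041-7784340 (+): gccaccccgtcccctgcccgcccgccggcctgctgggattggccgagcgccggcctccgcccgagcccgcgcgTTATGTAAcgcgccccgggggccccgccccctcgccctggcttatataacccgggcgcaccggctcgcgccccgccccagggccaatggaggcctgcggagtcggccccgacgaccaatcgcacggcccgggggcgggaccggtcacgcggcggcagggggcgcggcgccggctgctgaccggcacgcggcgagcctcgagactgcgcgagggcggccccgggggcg

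The DBP window held 1 STAT-type match, which starts 74 bases before the gene start, and none of the other capitalised motifs. Both TEF windows held 1 E-box, which starts 195 and 193 bases before the start, and the PER1 window held 1 E-box at 173 bases before it. The PER3 window held 1 D-box, which starts 177 bases before the start. Of the members not shown, BHLHE40 had an E-box at 245 bases before its start, PER2 an E′-box at 197 and a D-box variant at 3 bases before its start, and CRY1 an E′-box at 89 bases before its start. CLOCK and CRY2 each have a second annotated start, with an E′-box at 187 and 188 bases before it. The NPAS2 window, the windows at the first starts of CLOCK and CRY2 and that at the second start of PER3 held no match to any of these motifs, none of which contains another. Among 35116 promoters of this length, 7.26% hold the E-box, 5.34% the E′-box, 0.886% the D-box, 0.125% its variant, 1.85% the cAMP element and 7.66% the STAT-type motif. A match describes these letters and is not evidence of a bound factor.

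**Figure D1:**
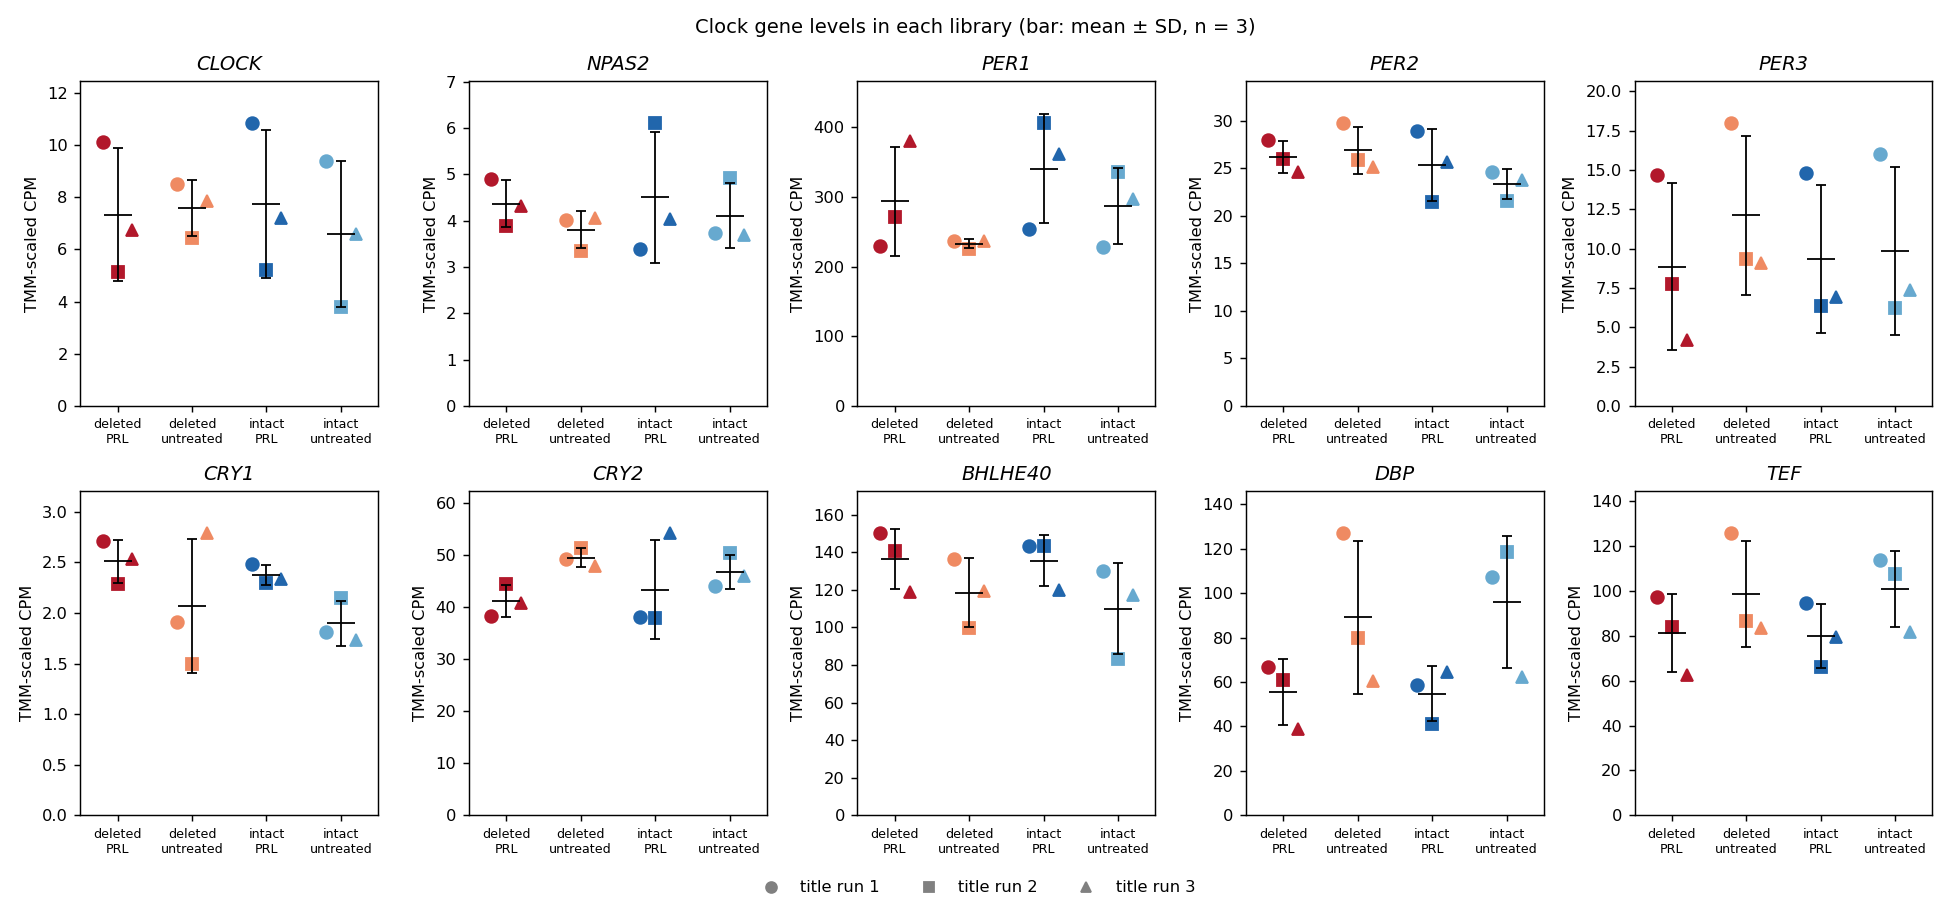
TMM-scaled CPM of the 10 clock genes in each library, by group, with marker shape for the run of title numbers and a bar for the mean ± SD (n = 3). DBP and TEF tend to lie lower in PRL libraries, and PER3 is at 14.6 to 18.0 CPM in run 1, above all other libraries.

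DBP (ENSG00000105516, chromosome 19, 48630030 to 48637438, - strand in GENCODE 29, build GRCh38) is a D-box binding activator and a direct output of the CLOCK and BMAL1 pair. Its level was 66.8, 61.1 and 38.8 CPM in the 3 deleted PRL libraries, against 127, 80.0 and 60.3 CPM in deleted untreated. In intact cells it was 58.8, 41.0 and 64.6 CPM with PRL, against 107, 119 and 62.2 CPM untreated. The PRL and untreated ranges overlapped in both receptor pairs, through the low untreated libraries of run 3. Group means were 55.6 ± 14.8 CPM with PRL against 89.1 ± 34.3 CPM untreated in deleted cells (SD, n = 3 each). In intact cells they were 54.8 ± 12.3 CPM with PRL against 96.0 ± 29.8 CPM untreated (SD, n = 3 each). The log2 fold change with PRL was -0.68 ± 0.32 in deleted cells and -0.81 ± 0.32 in intact cells (SE, edgeR adjusted p = 1 in both). Averaged over both, its 95% interval was -1.23 to -0.26, which does not include 0 before adjustment over all genes (edgeR adjusted p = 0.637).

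Within the runs of title numbers, the log2 difference of DBP between PRL and untreated was -0.93, -0.39 and -0.63 in deleted cells and -0.87, -1.53 and 0.05 in intact cells. The gene was thus lower with PRL in 5 of 6 pairs, and the exception was the intact pair of run 3. How many of all tested genes reach 5 of 6 pairs was not counted. This count, and the same count for members below, therefore cannot be set against genes in general. With a term for the runs the averaged log2 fold change of DBP was -0.70 ± 0.16 (edgeR adjusted p = 0.0504), which is just outside the threshold. Its estimate lay below 0 in all 19 alternative fits, at -0.87 to -0.57 when single libraries were left out. Only the fit with no count filter called it, at -0.75 (edgeR adjusted p = 0.00135), and limma-voom with quality weights gave a smaller value of -0.33 (adjusted p = 0.365). SPHK2, a sphingosine kinase gene on the opposite strand, shares 661 exonic bases with DBP, and whether reads were counted by strand is not stated in the labels or notes. SPHK2 averaged 56.3 CPM and had a log2 fold change of 0.14 ± 0.23 with PRL (edgeR adjusted p = 0.98), an estimate smaller than its SE. Whether shared reads enter the values of DBP was not tested.

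TEF (ENSG00000167074, chromosome 22, 41367333 to 41399326, + strand) encodes thyrotroph embryonic factor, which binds the same D-boxes. Deleted cells held 97.1, 83.8 and 62.5 CPM with PRL, against 126, 86.8 and 83.5 CPM untreated. Intact cells held 94.7, 66.0 and 79.4 CPM with PRL, against 114, 108 and 81.6 CPM untreated. The ranges overlapped in both pairs, yet within runs the PRL library was the lower one each time. These log2 differences were -0.37, -0.05 and -0.42 in deleted cells and -0.26, -0.70 and -0.04 in intact cells. TEF was the 1 member of 10 that was lower in 6 of 6 such pairs, a pattern that 6.05% of all tested genes share. No member was higher in 6 of 6 pairs, against 8.37% of all genes. The averaged log2 fold change was -0.31 ± 0.16 (SE, edgeR adjusted p = 0.98), and -0.30 ± 0.09 with the run term (edgeR adjusted p = 0.172).

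DBP and TEF followed each other closely. Pearson's r of their log2 CPM over the 12 libraries was 0.93, and 0.97 after the mean of each run was taken out. Over 12944 genes with a mean of at least 1 CPM, TEF was the gene most like DBP. The next were FAM88B at 0.92, TOB1 at 0.91, HCP5 at 0.90 and CNOT4 at 0.90. Those most like TEF were PTCD2 and WDR48 at 0.95 each, and CPE, GSK3B-DT and ATP6V1A at 0.94 each. The libraries share treatment groups, runs and depth differences, so these values only describe likeness. After the run means were taken out, CRY2 also followed DBP (0.90) and TEF (0.86), although its r with DBP was 0.54 before.

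**Figure D2:**
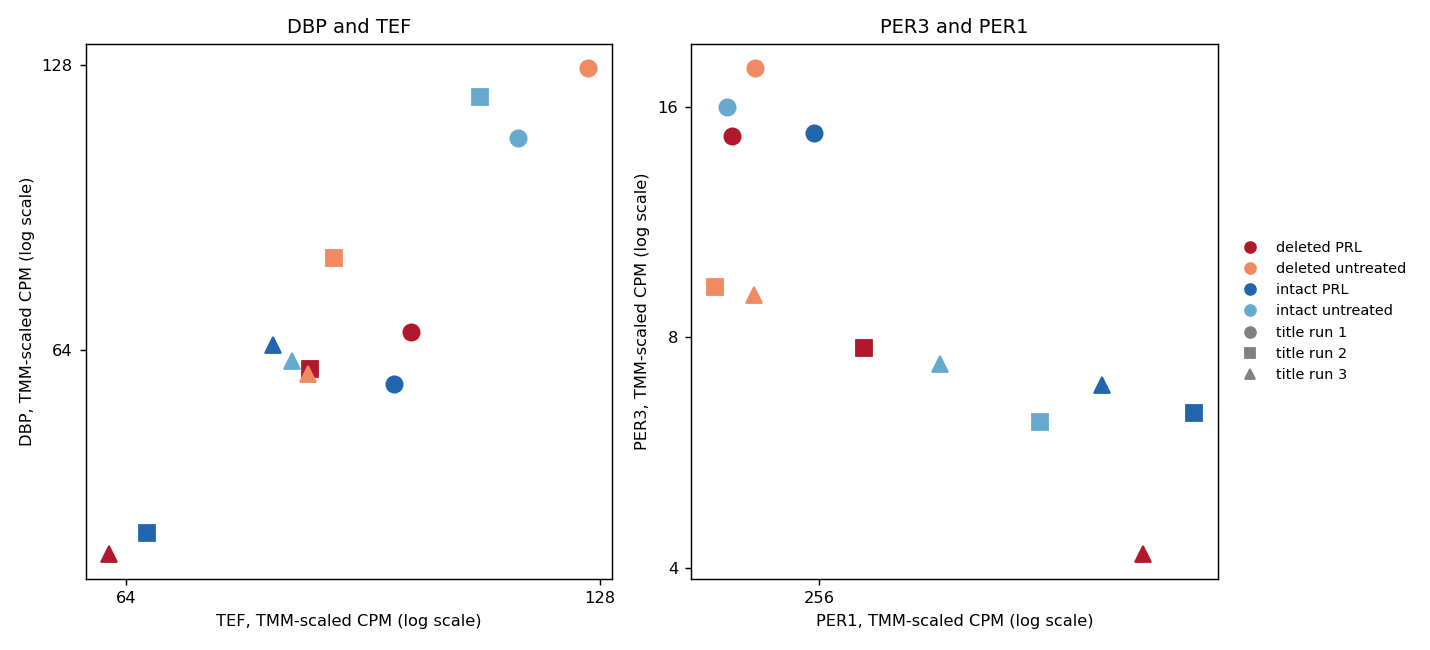
Levels of DBP against TEF (left) and of PER3 against PER1 (right) in the 12 libraries, both axes in TMM-scaled CPM on log scales, coloured by group and shaped by run of title numbers. DBP and TEF lie along a rising line (r = 0.93) and PER3 and PER1 along a falling one (r = -0.82).

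CLOCK (ENSG00000134852, chromosome 4, 55427903 to 55547138, - strand) and NPAS2 (ENSG00000170485, chromosome 2, 100820152 to 100996829, + strand), the activators that pair with BMAL1, were among the members with low levels. CLOCK was at 10.1, 5.14 and 6.74 CPM in deleted PRL libraries, against 8.52, 6.42 and 7.85 CPM in deleted untreated. It was at 10.8, 5.23 and 7.19 CPM in intact PRL libraries, against 9.41, 3.81 and 6.60 CPM in intact untreated. In every group the library of run 1 was the highest and that of run 2 the lowest. The averaged log2 fold change of CLOCK was 0.09 ± 0.25 (SE, edgeR adjusted p = 0.983), with an interval of -0.45 to 0.63. NPAS2 was at 4.89, 3.89 and 4.31 CPM in deleted PRL libraries, against 4.02, 3.34 and 4.06 CPM in deleted untreated. It was at 3.39, 6.10 and 4.02 CPM in intact PRL libraries, against 3.73, 4.91 and 3.68 CPM in intact untreated. The intact PRL library of run 2 stood highest, and the groups overlapped. NPAS2 was higher with PRL in 5 of 6 within-run pairs, with an averaged log2 fold change of 0.16 ± 0.18 (SE, edgeR adjusted p = 0.98).

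The 3 PER genes encode the period repressors. They differed in level and in spread over the libraries, and no test compared their PRL effects with each other. PER1 (ENSG00000179094, chromosome 17, 8140472 to 8156506, - strand), which is also an immediate response gene to cAMP and glucocorticoids, was the most abundant member. Its level was 230, 271 and 381 CPM in deleted PRL libraries, against 236, 225 and 236 CPM in deleted untreated. In intact cells it was 254, 406 and 362 CPM with PRL, against 229, 336 and 297 CPM untreated. The ranges overlapped in both pairs, and the 3 deleted untreated libraries lay close together. PER1 was higher with PRL in 5 of 6 within-run pairs, by -0.04, 0.26 and 0.69 in deleted cells and 0.15, 0.27 and 0.29 in intact cells on the log2 scale. Its averaged log2 fold change was 0.29 ± 0.16 (SE, edgeR adjusted p = 0.98), and 0.27 ± 0.11 with the run term (edgeR adjusted p = 0.304).

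PER2 (ENSG00000132326, chromosome 2, 238244038 to 238290102, - strand) varied least of all members, with a highest level 1.39 times its lowest. It was at 27.9, 25.9 and 24.6 CPM in deleted PRL libraries, against 29.7, 25.8 and 25.1 CPM in deleted untreated. In intact cells it was at 28.9, 21.4 and 25.7 CPM with PRL, against 24.6, 21.5 and 23.7 CPM untreated. The groups overlapped, and 3 of 6 within-run pairs were higher with PRL. Its averaged log2 fold change was 0.04 ± 0.12 with an interval of -0.21 to 0.29 (SE and 95% interval, edgeR adjusted p = 0.983), so a difference of 1.5-fold in either direction lies outside that interval. PER3 (ENSG00000049246, chromosome 1, 7784320 to 7845177, + strand) varied most, by 4.31 times. Its level was 14.6, 7.74 and 4.16 CPM in deleted PRL libraries, against 18.0, 9.32 and 9.08 CPM in deleted untreated. In intact cells it was 14.8, 6.37 and 6.92 CPM with PRL, against 16.0, 6.21 and 7.38 CPM untreated. The first value of each group, from run 1, was the highest in all 4 groups, and the deleted PRL library of run 3 was the lowest of all. PER3 was lower with PRL in 5 of 6 within-run pairs. Its averaged log2 fold change was -0.26 ± 0.35 (SE, edgeR adjusted p = 0.98), and -0.29 ± 0.13 with the run term (edgeR adjusted p = 0.35). Across the 12 libraries PER1 and PER3 ran in opposite directions (r = -0.82, and -0.80 after run means were taken out). The pair is named because this r was the most negative of all pairs of members. How often pairs of other genes reach such a value was not counted.

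The cryptochromes, which repress CLOCK and BMAL1 together with the PER proteins, leaned in opposite directions. CRY1 (ENSG00000008405, chromosome 12, 106991364 to 107093829, - strand) was at 2.71, 2.29 and 2.53 CPM in deleted PRL libraries, against 1.92, 1.50 and 2.79 CPM in deleted untreated. It was at 2.48, 2.30 and 2.34 CPM in intact PRL libraries, against 1.81, 2.15 and 1.74 CPM in intact untreated. In intact cells all 3 PRL libraries lay above all 3 untreated ones, while in deleted cells the untreated library of run 3 was the highest of all 12. The averaged log2 fold change of CRY1 was 0.30 ± 0.19 (SE, edgeR adjusted p = 0.98), higher with PRL in 5 of 6 within-run pairs. CRY2 (ENSG00000121671, chromosome 11, 45847118 to 45883248, + strand) was at 38.2, 44.5 and 40.8 CPM in deleted PRL libraries, against 49.2, 51.4 and 47.8 CPM in deleted untreated. It was at 38.0, 37.9 and 54.3 CPM in intact PRL libraries, against 44.0, 50.4 and 46.0 CPM in intact untreated. In deleted cells all 3 PRL libraries lay below all 3 untreated ones, and in intact cells the PRL library of run 3 was the highest of all 12. The averaged log2 fold change of CRY2 was -0.19 ± 0.12 (SE, edgeR adjusted p = 0.98), lower with PRL in 5 of 6 within-run pairs. PRL and untreated libraries thus did not overlap for 1 of 10 members in deleted cells, against 8.26% of all tested genes, and for 1 of 10 in intact cells, against 5.49%.

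BHLHE40 (ENSG00000134107, chromosome 3, 4979116 to 4985323, + strand), also known as DEC1, is a repressor that binds E-boxes and responds to growth factors and hypoxia. Its level was 150, 141 and 119 CPM in deleted PRL libraries, against 136, 99.8 and 120 CPM in deleted untreated. In intact cells it was 143, 143 and 120 CPM with PRL, against 130, 83.0 and 117 CPM untreated. The untreated libraries of run 2 were the lowest in both receptor pairs, and the groups overlapped. Within runs the log2 differences were 0.14, 0.49 and -0.01 in deleted cells and 0.14, 0.79 and 0.04 in intact cells, so that run 2 showed most of the difference and run 3 almost none. The averaged log2 fold change was 0.25 ± 0.14 (SE, edgeR adjusted p = 0.98), and 0.26 ± 0.10 with the run term (edgeR adjusted p = 0.276).

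**Figure D3:**
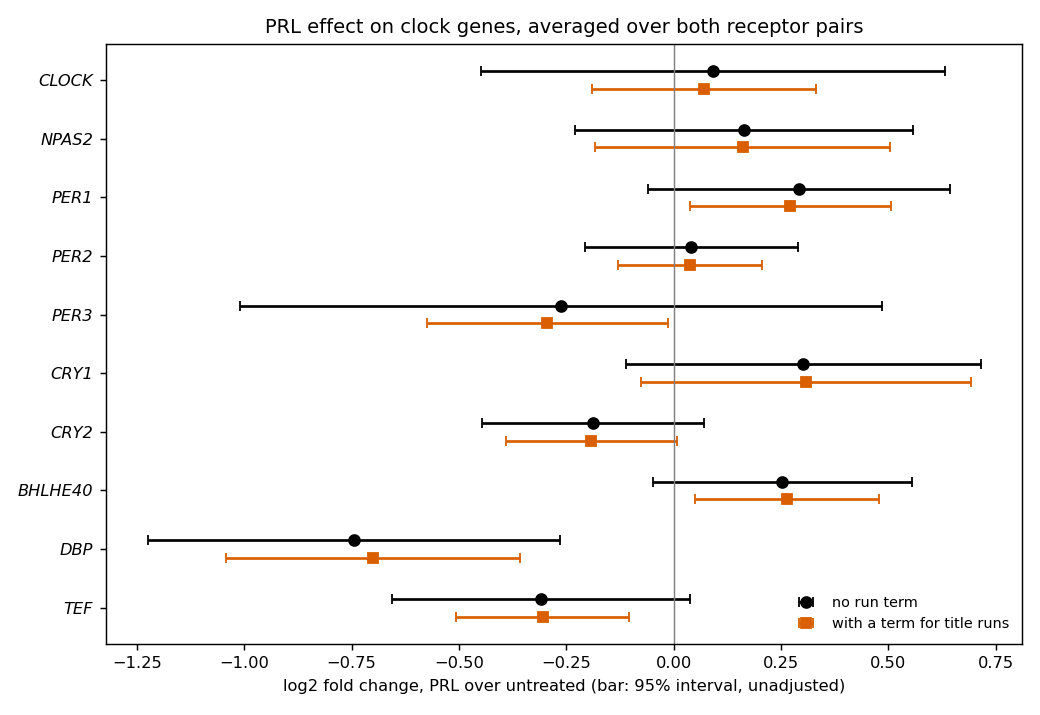
Averaged log2 fold change of each clock gene, PRL over untreated, with its unadjusted 95% interval, without (black circles) and with (orange squares) a term for the runs of title numbers. The interval of DBP lies below 0 in both fits (around -0.74 and -0.70), those of TEF and PER3 lie below 0 and those of PER1 and BHLHE40 above 0 with the run term alone, and no gene passed the adjusted test in either fit.

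Read together, 6 of the 10 members had an averaged log2 fold change with PRL above 0, and their median was 0.07. Of all tested genes, 8156 of 17677 lay above 0, with a median of -0.02. By the edgeR test 0 of 10 members were called, against 0.119% of all genes, and DESeq2 and limma-voom also called 0 of 10. At an unadjusted p under 0.05 there was 1 member, DBP, against 3.81% of all genes. In the fit with a run term 0 of 10 members were called, against 1.12% of all genes. At an unadjusted p under 0.05 that fit had 5 members, against 13.6% of all genes. These were DBP, TEF and PER3 with values below 0, and PER1 and BHLHE40 with values above 0. In single receptor pairs without the run term, 0 of 10 were called in either, against 0.017% of all genes in each. In that fit DBP was the 1 member with an unadjusted edgeR p under 0.05 in either pair. Of all 17677 genes, 316 were under 0.05 in deleted cells and 451 in intact cells. With the run term 0 of 10 were called in either, against 57 of all genes in deleted cells and 62 in intact cells. The unadjusted edgeR p was then under 0.05 for DBP and PER3 in deleted cells (0.0107 and 0.0132). In intact cells this held for DBP, TEF and BHLHE40 (0.00556, 0.0265 and 0.0424). The share of all genes under 0.05 in these run-term pairs was not counted, so these members cannot be set against genes in general.

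Deletion of the I-tail left the clock genes without a called difference. Averaged over both treatments without the run term, 0 of 10 members were called by the edgeR test, against 0.00566% of all genes. In that fit 0 of 10 had an unadjusted p under 0.05. DESeq2 and limma-voom also called 0 of 10. Their median log2 fold change was 0.03, equal to that of all tested genes at 2 decimals. PER1 had the smallest p, with a log2 fold change of -0.26 ± 0.16, deleted over intact (SE, edgeR adjusted p = 0.991). Its means were 233 ± 6.49 CPM in deleted untreated cells and 287 ± 54.3 CPM in intact untreated cells, and 294 ± 78.1 CPM in deleted PRL cells and 341 ± 77.9 CPM in intact PRL cells (SD, n = 3 each). With the run term the PER1 difference was -0.24 ± 0.11 (edgeR unadjusted p = 0.0422, adjusted p = 0.357), and PER1 alone was under 0.05 before adjustment. DBP differed by -0.04 ± 0.22 and TEF by -0.01 ± 0.16 on this scale, and the other 7 members by -0.08 to 0.12.

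Whether the PRL effect itself differed between receptor pairs was tested by the interaction, the effect in deleted cells minus that in intact cells. For DBP it was 0.13 ± 0.44 (SE, 95% interval -0.83 to 1.08) and for TEF 0.05 ± 0.32 (interval -0.64 to 0.75), edgeR adjusted p = 1 for both. PER3 had the most negative value, -0.38 ± 0.69, and DBP the most positive. By edgeR 0 of 10 members and 0% of all genes were called, 0 members and 127 genes had an unadjusted p under 0.05, and DESeq2 and limma-voom also called 0. The half-widths of the members' 95% intervals were 0.50 to 1.49 on the log2 scale, so sizeable differences between the receptor pairs would not have been detectable.

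PER3 and CLOCK were the members whose libraries of a run stood apart. PER3 was at 14.6 to 18.0 CPM in run 1, against 4.16 to 9.32 CPM in the 8 other libraries. CLOCK was at 8.52 to 10.8 CPM in run 1, against 3.81 to 7.85 CPM in the 8 other libraries, and its 4 libraries of run 2 lay below all others, at 3.81 to 6.42 CPM. These 2 of 10 members lay above all other libraries in run 1, against 12.8% of all genes, and 0 of 10 lay below, against 13.6%. CLOCK was the 1 member apart in run 2, against 3.56% of all genes, and 0 of 10 were apart in run 3, against 1.43%. The summed level of the 8 epithelial markers was 1842 to 2250 CPM in run 1, 5809 to 6681 CPM in run 2 and 6502 to 10547 CPM in run 3, with 6 of 8 markers lower in run 1 without overlap. Their part in the levels of PER3 and CLOCK was not tested. By group this sum was 2250 to 10547 CPM in deleted PRL, 1980 to 8310 CPM in deleted untreated, 2081 to 8242 CPM in intact PRL and 1842 to 6502 CPM in intact untreated libraries.

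**Figure D4:**
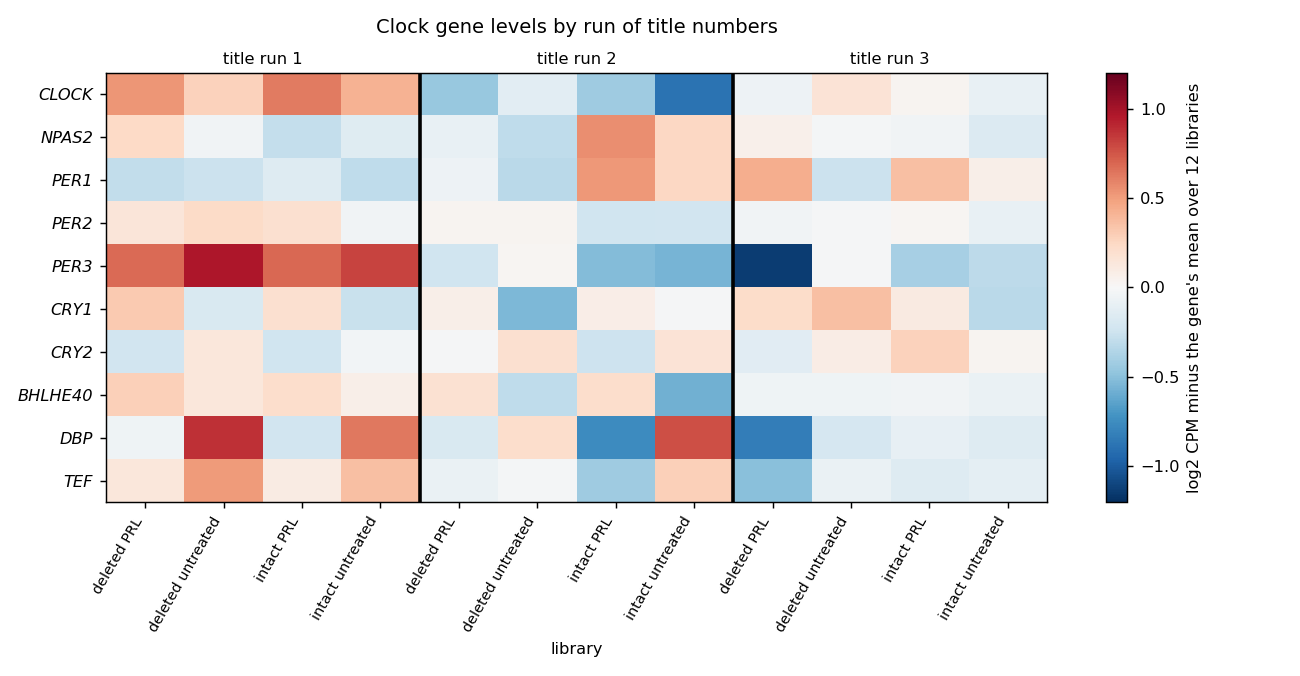
Log2 CPM of each clock gene minus its mean over the 12 libraries, in columns by run of title numbers and, within a run, by group (red above the mean, blue below). PER3 and CLOCK are above their means in all 4 libraries of run 1, and in runs 1 and 2 DBP is below its mean in all PRL libraries and above it in all untreated ones.

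Levels of different genes were compared per kilobase of merged exons. Median levels over the 12 libraries were 37.5 CPM per kb for PER1, 32.5 for BHLHE40, 18.1 for TEF, 9.70 for DBP and 7.30 for CRY2. They were 3.69 CPM per kb for PER2, 1.04 for PER3, 0.592 for CLOCK, 0.453 for CRY1 and 0.322 for NPAS2. The repressors PER1 and BHLHE40 thus stood highest, while CRY1, also a repressor, lay near the lower end with the activators CLOCK and NPAS2. Ranges over libraries overlapped between neighbours, except that CRY2 (6.11 to 8.76 CPM per kb) lay above PER2 (3.12 to 4.32) and PER2 above PER3 (0.514 to 2.22) in all 12. TEF stood above DBP and DBP above CRY2 in 12 and 11 of 12 libraries. Measured per kilobase of the longest coding transcript, DBP ranked above TEF, and NPAS2 and CRY1 above CLOCK. Overlapping genes on the opposite strand of the other members were at 0.06 CPM or less, apart from TMEM165 beside CLOCK (76 shared bases, 38.4 CPM, log2 fold change with PRL -0.01 ± 0.13) and BHLHE40-AS1 beside BHLHE40 (4 shared bases, 0.274 CPM).

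A second list held 19 other clock genes, among them BMAL1, the REV-ERB receptors, the casein kinases and the ubiquitin ligases that act on PER and CRY, of which 18 were tested. None of these was called in any comparison by edgeR. For the averaged PRL effect 6 of 18 lay above 0, with a median of -0.12 beside -0.02 for all genes. CSNK1E, a kinase of PER proteins, had a log2 fold change of 0.25 ± 0.14, and BTRC, a ubiquitin ligase subunit that recognises PER, one of -0.28 ± 0.16 (SE, edgeR adjusted p = 0.98 for each). In the other 4 comparisons 0 of 18 had an unadjusted p under 0.05. Among 8 known clock outputs 2 lay above 0 (median -0.09), among 9 glucocorticoid-induced genes 6 did (median 0.14), and among 9 cAMP and CREB response genes 4 did (median -0.10). None of these 3 lists held a gene called without the run term. In that fit 5 of 9 cAMP and CREB response genes had an unadjusted edgeR p under 0.05, against 3.81% of all genes. Of the glucocorticoid-induced genes, 3 of 9 did, in both directions. TSC22D3 and DUSP1 had log2 fold changes of -0.42 and -0.29, and ERRFI1 one of 0.50. The cAMP and CREB values ran from -1.03 for NR4A2 to 1.08 for NR4A3. Their median absolute log2 fold change was 0.57, beside 0.16 for all genes.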

How the data were processed

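PolyA RNA of 12 MCF10AT libraries was measured in 4 groups of 3, taken from the genotype and treatment labels. The authors deposited whole-number counts per Ensembl gene. The tools they used were, per the submitters' processing notes, FastQC, STAR 2.7.9a and featureCounts (Subread), on GRCh38. The sources used here do not state the annotation release or strandedness, so a gene and its antisense partner may share reads. Of 62703 entries, 1 held no values and was left out. Depth was 36120808 to 57324865 counts, and replicates differed beyond sampling noise (chi-square per degree of freedom 51.2 to 212).

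Genes kept by filterByExpr (17677) were normalised with TMM. edgeR 4.0.16 in R 4.3.3 fitted a mean for each group over all 12 libraries, with robust quasi-likelihood estimation and 8 residual degrees of freedom. The F test was adjusted by Benjamini-Hochberg over all tested genes at 0.05. Each standard error is the log2 estimate over the root of its F value. Log2 CPM for correlations used a prior count of 2. Alternatives were RLE and library-size scaling, no and a stricter count filter, DESeq2 1.42.0, limma-voom (limma 3.58.1), the compared groups only, a term for runs of title numbers, and leaving out each library. Replicates are numbered by title run. Coordinates came from GENCODE 29 and promoters from RefSeq (all 10 members matched).

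The members, lists and tests were chosen with earlier results of these data known. Named were all 10 members, other clock genes called or among the 3 smallest p for the averaged PRL effect, the 5 genes most like each of the 2 members with the smallest p, and overlapping genes on the opposite strand. Some results under this rule, and the calls with the run term in the list of clock outputs, are not reported here. On simulated data of 17247 genes, the averaged PRL test recovered 100% of 4-fold, 71.6% of 2-fold and 9.09% of 1.5-fold changes, with 8 false calls. The interaction test, on 17208 genes, recovered 53.7% of 4-fold, 0% of 2-fold and 3.03% of 1.5-fold changes, with 1 false call. The simulated counts held no differences between runs, unlike these libraries, and only genes with a mean of at least 1 CPM were changed.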

Additional observations from a re-analysis of the deposited data

How the results depend on the processing

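The count of clock genes called stayed at 0 in all 5 comparisons under every alternative but 1: with no count filter DBP was called for the averaged PRL effect, a count of 1. Counts over all genes moved more. The averaged PRL effect gave 21 calls, 124 with no count filter, 91 with DESeq2, 118 with limma-voom, 198 with the run term and 11 to 27 when single libraries were left out (11 to 13 without any 1 of the deleted untreated libraries). In intact cells 3 calls became 1 with library size alone, 46, 22, 27 and 62 under the same 4 alternatives, 1 with the compared groups only and 1 to 4 without single libraries (1 without any intact untreated library). In deleted cells 3 became 1, 33, 20, 21, 57, 10 and 1 to 4 in this order (1 without any deleted PRL library or without deleted untreated libraries 1 or 2). The deletion effect gave 1 call, then 33 with no count filter, 10 with DESeq2, 9 with limma-voom, 11 with the run term and 1 to 2 without single libraries (2 without intact untreated library 1), and the interaction gave 0 in all fits. The cause was not tested. Scaling by library size alone moved the median of all genes for the averaged PRL effect to -0.12, beside -0.02. RLE scaling and the stricter filter kept every count within 1.5 times. The labels give no replicate number that pairs libraries. The fit with a run term and the differences within runs block by the order of the titles, and what a run stands for is not known.

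Of the estimates of single genes under the alternatives, 91 differed in sign from the fit without alternatives, and none of them was called. The same effect can count under several alternatives. In the fit without alternatives each of these effects was smaller than its own standard error. Under DESeq2 these were the averaged deletion effect of CRY2 (-0.025). With RLE scaling these were the averaged deletion effect of CRY2 (-0.025). With library size alone these were the averaged PRL effect of CLOCK (-0.00052) and PER2 (-0.055), the PRL effect in intact cells of NPAS2 (-0.020) and the averaged deletion effect of NPAS2 (0.047), DBP (0.052) and TEF (0.078). Under limma-voom these were the averaged PRL effect of CLOCK (-0.060), the PRL effect in intact cells of CRY2 (0.13), the averaged deletion effect of CLOCK (-0.00019), NPAS2 (0.016), CRY2 (-0.085) and TEF (0.056) and the interaction of NPAS2 (-0.0062), BHLHE40 (0.099), DBP (-0.27) and TEF (-0.076). With no count filter these were the averaged deletion effect of CRY2 (-0.012). With stricter count filter these were the averaged deletion effect of CRY2 (-0.0013). When single libraries were left out, estimates that crossed 0 had these ranges. The averaged PRL effect crossed 0 for CLOCK (-0.068 to 0.26), PER2 (-0.012 to 0.095) and PER3 (-0.55 to 0.0063). The PRL effect in deleted cells crossed 0 for CLOCK (-0.35 to 0.17) and PER2 (-0.089 to 0.039). The PRL effect in intact cells crossed 0 for CLOCK (-0.089 to 0.57), NPAS2 (-0.15 to 0.30) and PER3 (-0.57 to 0.46). The averaged deletion effect crossed 0 for CLOCK (-0.095 to 0.23), NPAS2 (-0.16 to 0.043), PER3 (-0.18 to 0.38), CRY1 (-0.035 to 0.20), CRY2 (-0.064 to 0.070), BHLHE40 (-0.043 to 0.13), DBP (-0.22 to 0.065) and TEF (-0.11 to 0.064). The interaction crossed 0 for CLOCK (-0.62 to 0.042), NPAS2 (-0.10 to 0.36), PER1 (-0.15 to 0.24), PER3 (-0.95 to 0.12), CRY1 (-0.23 to 0.23), CRY2 (-0.24 to 0.033), BHLHE40 (-0.23 to 0.059), DBP (-0.090 to 0.47) and TEF (-0.099 to 0.26). Without the run term, the intervals of the members for the averaged PRL effect had half-widths of 0.25 to 0.75 on the log2 scale. With the run term, on the same libraries, the half-widths ran from 0.17 for PER2 to 0.39 for CRY1. What set these widths was not tested.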

Other observations

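Clock genes outside the 10 members also differed between the runs of title numbers. They are named here after their values were seen. In run 1, 7 of 18 other clock genes lay above all other libraries (38.9%, beside 12.8% of all tested genes) and 1 lay below (USP2). BHLHE41, the close relative of BHLHE40, was at 11.2 to 15.3 CPM in run 1, against 2.54 to 5.47 CPM in the 8 other libraries. HLF, the remaining PAR bZIP factor beside DBP and TEF, was at 5.00 to 6.81 CPM in run 1, against 1.02 to 3.51 CPM in the 8 other libraries. NR1D2, which encodes the repressor REV-ERB beta, was at 24.6 to 29.3 CPM in run 1, against 7.11 to 14.5 CPM in the 8 other libraries. CIART, a repressor of CLOCK and BMAL1, was at 8.46 to 14.6 CPM in run 1, against 2.29 to 6.89 CPM in the 8 other libraries. CIPC, FBXW11 and BMAL2 also lay above, by 1.25 to 1.55 times at the median. BMAL1 was instead at 6.68 to 8.40 CPM in run 3, against 3.46 to 6.16 CPM in the 8 other libraries. NFIL3, a repressor that binds D-boxes, was at 3.17 to 5.94 CPM in run 2, against 7.24 to 10.7 CPM in the 8 other libraries. The epithelial keratin KRT5 was at 310 to 416 CPM in run 1, against 995 to 3331 CPM in the 8 other libraries, and the part of such differences in the clock genes was not tested.

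With the run term, 1 of 9 glucocorticoid-induced genes and 2 of 9 cAMP and CREB response genes were called for the averaged PRL effect, beside 1.12% of all genes. These were ERRFI1, higher at 0.50 ± 0.10, PDE4D, lower at -0.49 ± 0.08, and NR4A2, lower at -1.08 ± 0.22 (log2 fold change ± SE, edgeR adjusted p = 0.0292, 0.00493 and 0.0232 in this order).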
